A study of Homo sapiens with 8 samples.

Results

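The 10 genes described here mark the epithelial or the mesenchymal state of a cell. CDH1, EPCAM, ESRP1 and VIL1 are epithelial, CDH2, VIM and FN1 are mesenchymal, and SNAI1, SNAI2 and ZEB1 encode transcription factors that act between these states. They were chosen by name and known function, not by a threshold on a measured value. Of the 10, 9 had a transcript in 1 or more libraries, out of 17250 genes that did. RNA-seq was performed on HepG2 cells and on cells labelled Hep3B, both human hepatocellular carcinoma (HCC) lines. Beside an untreated control, each line has cultures kept for 48 h in NaB, in Cur with Pip (Cur+Pip) or in all 3 agents (combination treatment). NaB is sodium pentaborate pentahydrate, a boron compound, Cur is curcumin from turmeric, and Pip is piperine from pepper. NaB was given at 2500 µM to HepG2 and at 1700 µM to the cells labelled Hep3B, and Cur at 30 µM and Pip at 6 µM to both. Stocks of Cur and Pip were made in dimethyl sulfoxide (DMSO) and those of NaB in medium. No library is described as a solvent control, so Cur+Pip and its solvent cannot be told apart here. Each condition is 1 library, so a difference between treatments within a line has no replicate check and no p-value.

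Epithelial cells adhere to one another through E-cadherin and are polarised, with microvilli on the free surface. Mesenchymal cells carry N-cadherin and vimentin, deposit fibronectin and move singly. Snail, Slug and ZEB1 repress epithelial genes at E-box motifs during the epithelial-mesenchymal transition, whereas ESRP1 holds the epithelial pattern of splicing. The liver is a particular case: hepatocytes are epithelial and yet secrete plasma fibronectin and carry N-cadherin beside E-cadherin.

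The levels are FPKM, fragment numbers scaled to transcript length and to the size of the library, summed over the transcripts that Cufflinks assembled from each library and that share at least 50% of their exonic bases with the gene. FPKM is scaled to length, so levels of different genes can be set side by side. The brackets of values give the 95% interval of Cufflinks, which covers the estimate from 1 library and not the variation of cultures. The libraries held an estimated 25.6 to 35.7 M fragments. A gene with no assembled transcript is listed at 0. Of the 80 pairs of a marker gene and a library, 24 were listed at 0, and in 0 of these 24 did any transcript on the strand of the gene lie over it. In 4 of the 24, VIL1 in the Hep3B-labelled libraries, transcripts of the other strand or of no strand did. Their level came to 3.42 to 5.28 FPKM in a library. The share of transcripts with a single exon went from 16.4% in the HepG2 control to 22.7%, 34.1% and 32.2% in the NaB, Cur+Pip and combination libraries, and from 14.7% in the Hep3B-labelled control to 19.1%, 22.4% and 28.4%. Of 41 hepatocyte genes, 32 to 36 reached 1 FPKM in the HepG2 libraries and 4 to 6 in the Hep3B-labelled ones, so the label is used below as a name only. In bulk RNA, fewer cells of a type and less RNA per cell cannot be told apart.

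FN1, the gene of fibronectin, is the member whose sequence is shown, with its promoter and a pair of alternative exons. Whether the promoter bears on the levels of FN1 was not tested. It lies on the minus strand of chromosome 2 of GRCh38, from 215360440 to 215436073. RefSeq gives 1 start for it, and the most upstream base assembled in each of the 8 libraries lay between 95 bases before and 67 bases after that start. The 250 bases before the RefSeq start (GRCh38.p14, chr2:215436069-215436318, minus strand) are shown with the letters TGACGTCA, the cAMP response element, and TATAAG, a core promoter box, in capitals. A search of both strands of 35116 promoter windows of equal length found the former in 1.85% and the latter in 5.59% of them.
FN1 promoter: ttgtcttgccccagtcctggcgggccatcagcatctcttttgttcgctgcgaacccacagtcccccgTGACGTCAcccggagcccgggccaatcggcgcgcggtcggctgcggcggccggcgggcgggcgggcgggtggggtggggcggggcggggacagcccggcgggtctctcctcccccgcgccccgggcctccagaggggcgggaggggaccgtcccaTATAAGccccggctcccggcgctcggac

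The alternative exons of FN1 are shown because transcripts with and without them were assembled as separate isoforms. Exon 25 of the 46 exons of the canonical transcript is extra domain B (GRCh38, chr2:215392931-215393203) and exon 33 is extra domain A (GRCh38, chr2:215380811-215381080). Both are coding exons whose length is a multiple of 3. Fibronectin of plasma lacks both domains, while fibronectin of the tissue matrix can hold them. No base is set in capitals, since the whole exon is the part that matters.
FN1 extra domain B exon: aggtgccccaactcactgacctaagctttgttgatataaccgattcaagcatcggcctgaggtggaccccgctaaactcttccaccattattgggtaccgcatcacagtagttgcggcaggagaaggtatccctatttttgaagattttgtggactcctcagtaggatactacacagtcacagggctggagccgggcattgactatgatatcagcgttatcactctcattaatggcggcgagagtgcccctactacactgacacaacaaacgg
FN1 extra domain A exon: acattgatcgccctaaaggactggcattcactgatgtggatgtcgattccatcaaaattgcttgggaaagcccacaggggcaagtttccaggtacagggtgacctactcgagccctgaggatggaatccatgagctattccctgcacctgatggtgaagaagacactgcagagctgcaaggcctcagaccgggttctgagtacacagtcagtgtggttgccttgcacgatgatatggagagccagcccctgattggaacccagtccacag

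The epithelial markers separated the lines. EPCAM, a surface glycoprotein of epithelial cells and of liver tumours with progenitor features (chromosome 2, 47345158 to 47387601), was at 104 FPKM (98.9 to 109) in the HepG2 control, 51.4 after NaB, 44.1 after Cur+Pip and 38.3 after the combination. In the other line it was at 0.54 FPKM in the control (0.30 to 0.78) and 0.53 after Cur+Pip, each time as 1 transcript with all 9 canonical exons, and it was listed at 0 after NaB and after the combination. The lowest HepG2 library was therefore above the highest Hep3B-labelled library.

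VIL1 encodes villin, which bundles actin in microvilli (chromosome 2, 218419121 to 218453295). The HepG2 control held 157 FPKM of it, against 71.6 after NaB, 9.99 after Cur+Pip and 6.77 after the combination. It was listed at 0 in all 4 Hep3B-labelled libraries. CDH1, which encodes E-cadherin (chromosome 16, 68737292 to 68835537), was at 7.20 FPKM in the HepG2 control, 2.57 after NaB, 1.28 after Cur+Pip and 1.30 after the combination, and was likewise listed at 0 in the 4 Hep3B-labelled libraries. ESRP1, an RNA-binding protein of epithelial splicing (chromosome 8, 94641074 to 94707466), was listed at 0 in all 8 libraries. Its paralogue ESRP2 was at 5.02 to 24.0 FPKM in HepG2 and at 6.10 to 11.2 FPKM in the Hep3B-labelled libraries. E-cadherin was thus the lowest, in each HepG2 library, of the 3 epithelial markers listed there.

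Of the mesenchymal markers, vimentin and fibronectin lay at opposite ends. VIM encodes vimentin, the intermediate filament of mesenchymal cells (chromosome 10, 17228241 to 17237593). It was listed at 0 in all 4 HepG2 libraries and was at 390 FPKM in the Hep3B-labelled control, 411 after NaB, 275 after Cur+Pip and 255 after the combination. FN1 was at 1416 FPKM (1356 to 1475) in the HepG2 control, 825 after NaB, 449 after Cur+Pip and 315 after the combination. It was at 4.63, 3.59, 3.26 and 2.12 FPKM in the Hep3B-labelled libraries in the same order. Fibronectin was the most abundant of the 10 in every HepG2 library, and vimentin in every Hep3B-labelled library.

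CDH2, which encodes N-cadherin (chromosome 18, 27932879 to 28177946), was assembled in all 8 libraries with all 16 canonical exons. In HepG2 it was at 15.4 FPKM in the control, 16.9 after NaB, 7.49 after Cur+Pip and 10.7 after the combination. In the Hep3B-labelled libraries it was at 5.12, 9.57, 6.57 and 6.66 FPKM in the same order, so the ranges of the lines overlapped. The ratio of CDH2 to CDH1 in HepG2 was 2.13 in the control, 6.57 after NaB, 5.85 after Cur+Pip and 8.22 after the combination. It rests on summed transcripts, with 3 of CDH1 after Cur+Pip and 3 after the combination. With the coverage apportioned over annotated exons, CDH1 was at 6.24, 2.23, 0.35 and 0.69 FPKM in the same order. CDH2 was then at 15.0, 16.6, 7.63 and 10.5 FPKM. The order of the treated libraries by this ratio depends on how transcripts are summed. N-cadherin thus exceeded E-cadherin in every HepG2 library, the control included.

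The transcription factors were at low levels in the controls. SNAI1, which encodes Snail (chromosome 20, 49982980 to 49988886), was at 3.41 FPKM (2.88 to 3.93) in the HepG2 control, 1.28 after NaB, 35.0 after Cur+Pip and 38.6 after the combination. Its level in the Hep3B-labelled libraries was 1.10 FPKM (0.80 to 1.40) in the control, 1.82 after NaB, 13.96 after Cur+Pip and 26.2 after the combination. The 4 libraries with Cur+Pip, of either line, were all above the 4 without. An estimated 68.0 to 221 fragments stood behind SNAI1 in the controls and 868 to 3201 in the libraries with Cur+Pip.

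SNAI2, which encodes Slug (chromosome 8, 48917598 to 48921740), reached 0.33 FPKM in untreated HepG2 cells and 0.96 FPKM after the combination, and was listed at 0 after NaB and after Cur+Pip. In the Hep3B-labelled libraries it was at 4.54, 8.40, 3.50 and 7.41 FPKM, in the order control, NaB, Cur+Pip, and combination. Both libraries with NaB were above both without it there. ZEB1, a zinc finger repressor of CDH1 (chromosome 10, 31318495 to 31529814), spanned the narrowest range of the 9 markers that were listed: 3.44, 2.79, 5.38 and 5.10 FPKM in HepG2 and 4.71, 4.91, 4.89 and 5.78 FPKM in the Hep3B-labelled libraries, in the same order.

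**Figure D1:**
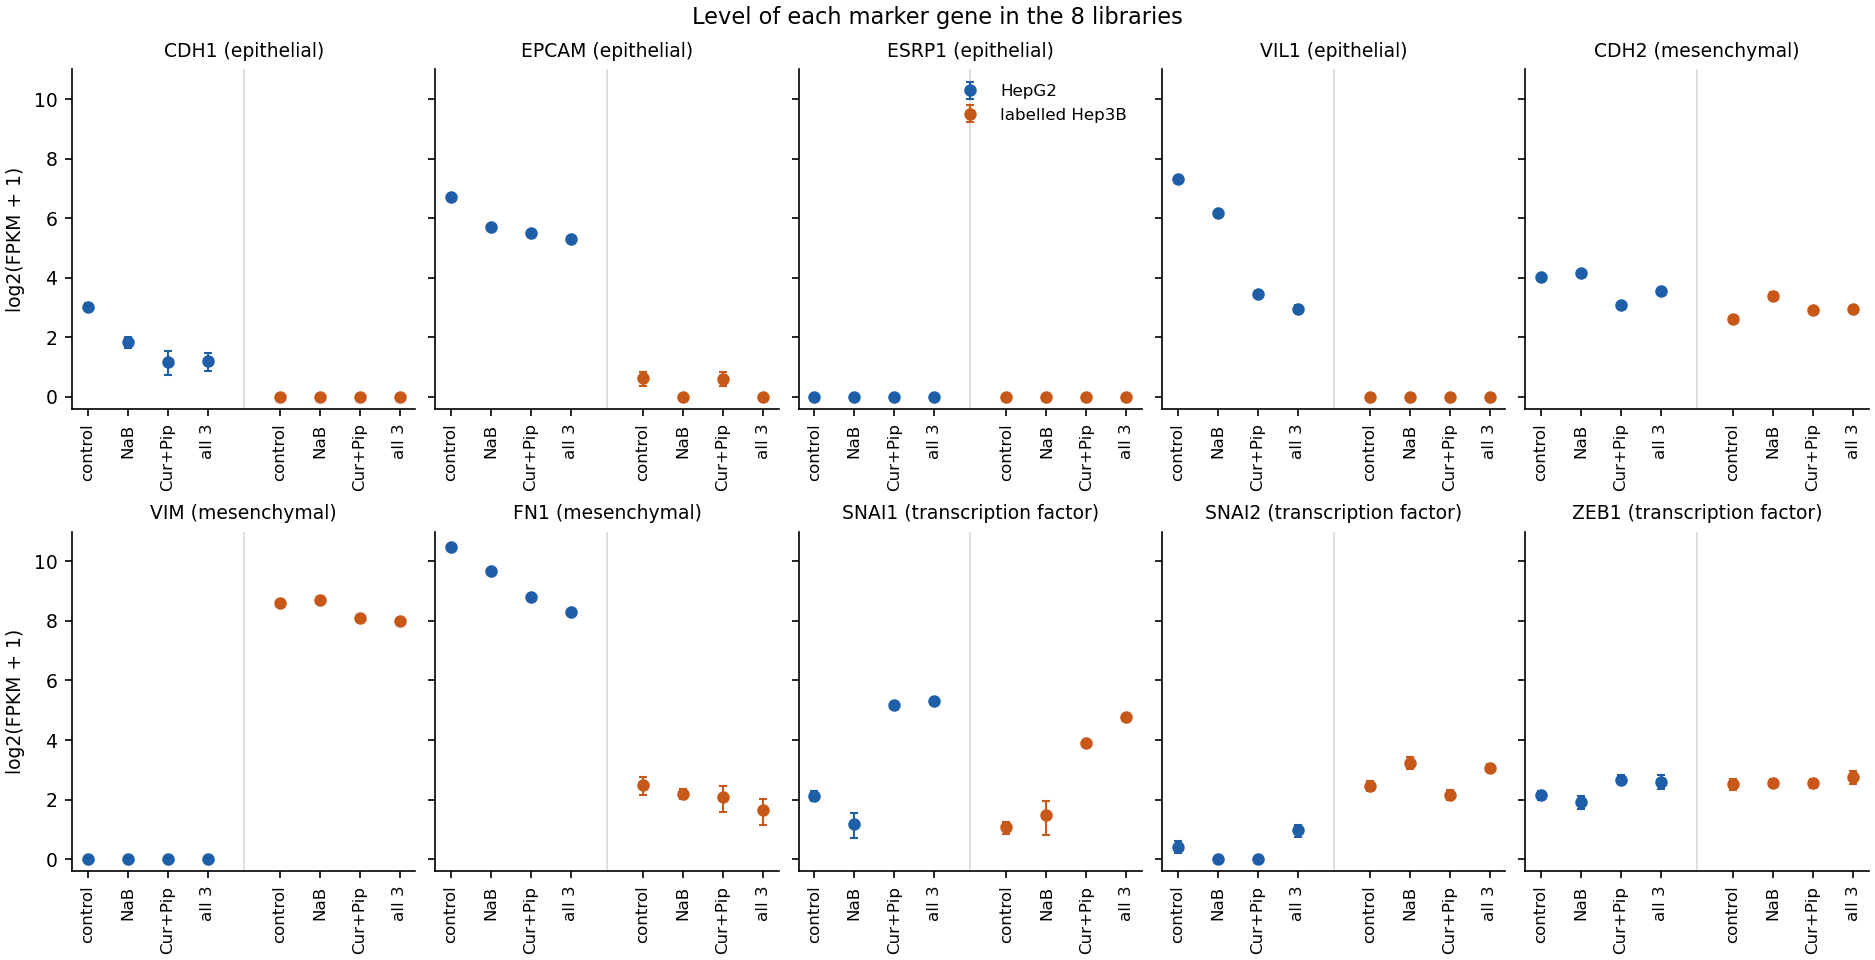
Level of each marker gene in each library on a log2(FPKM + 1) axis, with HepG2 in blue and the Hep3B-labelled libraries in orange, where the bars are 95% Cufflinks intervals summed over transcripts and "all 3" is the combination. CDH1, VIL1 and most of EPCAM appear in HepG2 alone, VIM appears in the Hep3B-labelled libraries alone, and SNAI1 is high in the libraries with Cur+Pip of both lines.

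To ask which markers differ between the lines, log2(FPKM + 1) of the 8 libraries was fitted with limma with the line and the treatment as terms. Values are HepG2 minus the Hep3B-labelled libraries, with the standard error and the Benjamini-Hochberg adjusted p over 15445 genes. The 4 libraries of a line are 4 treatments of it and not replicate cultures. Of the 9 markers with 1 FPKM in 1 or more libraries, 6 were called, 4 higher and 2 lower in HepG2, beside 24.7% of all genes tested, 10.6% higher and 14.1% lower. The count is no support for a difference of the markers as a set, since CDH1, EPCAM and VIL1 reached 1 FPKM in HepG2 alone and VIM and SNAI2 in the Hep3B-labelled libraries alone, so that these 5 entered the fit through the line where they are high. Of the 4 markers with 1 FPKM in all 8 libraries, 1 was called when the fit was held to such genes, FN1. The share of all genes called under that filter was not taken, so this count is not read as a result about the markers. FN1 was higher by 7.21 (SE 0.31, adjusted p = 0.000676), EPCAM by 5.49 (SE 0.28, adjusted p = 0.000765), VIL1 by 4.97 (SE 0.82, adjusted p = 0.0136) and CDH1 by 1.82 (SE 0.38, adjusted p = 0.0267). VIM was lower in HepG2, with a difference of -8.35 (SE 0.24, adjusted p = 0.000643), as was SNAI2, with -2.39 (SE 0.29, adjusted p = 0.00599). The markers called higher in HepG2 include fibronectin from the mesenchymal side. No epithelial marker reached 1 FPKM in a Hep3B-labelled library, so none could be called higher there.

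The ranges of these 6 genes did not overlap between the lines, beside 13.1% of all genes tested higher and 16.9% lower in HepG2, which for CDH1, VIL1 and VIM restates that they are listed at 0 in 1 line. CDH2 differed by 0.74 (SE 0.28, adjusted p = 0.119), SNAI1 by 0.64 (SE 0.33, adjusted p = 0.215) and ZEB1 by -0.26 (SE 0.23, adjusted p = 0.438), none past the threshold. The call for CDH1 was lost when any 1 of the 8 libraries was left out, where its difference was 1.41 to 2.02. The call for VIL1 was lost without any 1 library other than those of the combination, where its difference was 4.199 to 5.48. Leaving out a library also takes away a residual degree of freedom of the 3. For each treatment, leaving out its library of either line gave the same difference, so these are not 8 separate checks.

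Within HepG2, no marker passed an absolute log2 fold change of 1.5 after NaB, whereas CDH1, VIL1 and FN1 were lower and SNAI1 was higher past it after Cur+Pip and after the combination. A fold change is the difference in log2(FPKM + 1) between a treated library and the control, taken for genes with at least 1 FPKM in 1 or more libraries of the line, and the 3 comparisons of a line share 1 control. After NaB, 0 of the 7 markers tested passed, beside 4.69% of all genes tested higher and 5.05% lower. The fold change of CDH1 was -1.20, of VIL1 -1.12, of EPCAM -1.002, of SNAI1 -0.95 and of FN1 -0.78, each with Cufflinks intervals apart from those of the control. After Cur+Pip, 4 of 7 passed, beside 8.96% of all genes higher and 10.2% lower. After the combination the same 4 genes passed, beside 8.02% of all genes higher and 11.5% lower.

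Villin showed the largest difference of the 10 markers in HepG2. Its fold change was -3.84 after Cur+Pip and -4.34 after the combination, or 14.3-fold and 20.3-fold lower on the scale with 1 FPKM added. Both libraries still held a transcript with all 20 canonical exons. E-cadherin had fold changes of -1.85 and -1.83. Its transcript was assembled whole from an estimated 1192 fragments in the control, whereas after Cur+Pip 3 pieces covering 12 of the 16 canonical exons were assembled from 67.6 fragments. EPCAM was just short of the threshold, with -1.22 after Cur+Pip and -1.42 after the combination.

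Fibronectin had fold changes of -1.65 after Cur+Pip and -2.16 after the combination. These rest in part on how its transcripts were assembled, as 3 in the control and 1 after the combination. By the largest transcript alone they were -0.62 and -0.87, both short of the threshold. With the coverage apportioned over annotated exons they were -1.30, short of it, and -1.72, past it. N-cadherin was at -0.95 after Cur+Pip and -0.49 after the combination. ZEB1 was at 0.52 and 0.46.

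Snail was the 1 marker that was higher past the threshold. Its fold change in HepG2 was 3.03 after Cur+Pip and 3.17 after the combination, 10.3 and 11.3 times the FPKM of the control. It was 2.83 and 3.70 in the Hep3B-labelled libraries, 12.7 and 23.9 times the FPKM of the control there. It was the 1 marker of 6 tested to pass in each of these comparisons, beside 6.44% of genes higher after Cur+Pip and 6.79% after the combination. After NaB alone 0 of 6 passed, beside 4.97% of genes higher and 7.01% lower, and SNAI1 was at 0.42.

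The other markers of the Hep3B-labelled libraries stayed within the threshold. VIM had fold changes of 0.07 after NaB, -0.50 after Cur+Pip and -0.61 after the combination. FN1 had -0.30, -0.40 and -0.85 in the same order. CDH2 had 0.79, 0.31 and 0.32, and SNAI2 0.76, -0.30 and 0.60. ZEB1 lay between 0.05 and 0.25 in all 3.

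**Figure D2:**
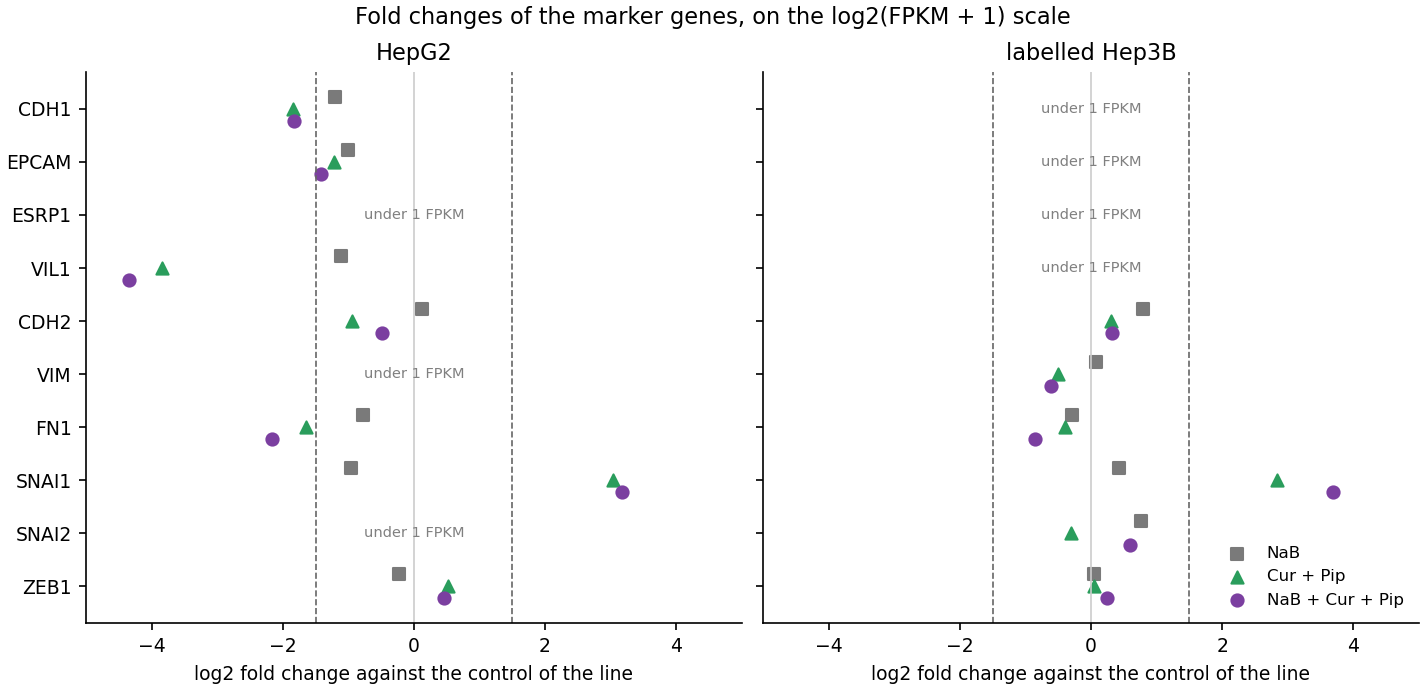
Fold change of each marker gene against the control of its line on the log2(FPKM + 1) scale, with NaB as grey squares, Cur+Pip as green triangles and the combination as purple circles, and dashed lines at 1.5 in both directions. SNAI1 lies beyond the upper line in both lines with Cur+Pip, and VIL1, CDH1 and FN1 lie beyond the lower line in HepG2.

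The step of Cur+Pip, with its solvent DMSO, can also be read at a matched dose of NaB, by setting the combination against NaB alone. In HepG2 that step gave SNAI1 4.12 and VIL1 -3.22, both past the threshold, beside 7.53% of genes higher and 10.5% lower, whereas FN1 was at -1.39, CDH1 at -0.63 and EPCAM at -0.42. In the Hep3B-labelled libraries it gave SNAI1 3.27, beside 5.34% of genes higher and 4.43% lower, and no other marker passed. Adding NaB to Cur+Pip took 0 markers past the threshold, beside 4.97% of genes higher and 7.57% lower in HepG2 and 4.09% and 6.68% in the Hep3B-labelled libraries. The values of that step lay between -0.51 for FN1 and 0.46 for CDH2 in HepG2, and between -0.45 for FN1 and 0.90 for SNAI2 in the Hep3B-labelled libraries.

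Changes shared by both lines were asked of the same limma fit, in which each treatment has 1 library per line and 3 residual degrees of freedom. SNAI1 was higher by 2.93 (SE 0.47) after Cur+Pip, with an adjusted p = 0.435, and by 3.43 (SE 0.47) after the combination, with an adjusted p = 0.198. It was higher in 2 of 2 lines both times. A shared change could not be tested for CDH1 and VIL1, listed at 0 in all Hep3B-labelled libraries, nor for VIM, listed at 0 in all of HepG2. EPCAM was at most 0.54 FPKM in the Hep3B-labelled libraries and SNAI2 at most 0.96 FPKM in HepG2. By limma 0 of the 9 markers in the fit, these 5 included, passed an adjusted p of 0.05 after any treatment, and at an unadjusted p under 0.05 SNAI1 passed after Cur+Pip, and SNAI1, FN1 and EPCAM after the combination, beside 4.70%, 5.93% and 10.7% of all genes after NaB, Cur+Pip and the combination. Among all 15445 genes, 0.00% passed the adjusted threshold after NaB, 0.0259% after Cur+Pip and 0.0712% after the combination. In a fit with the presence of Cur+Pip, the presence of NaB and the line as terms, chosen after seeing the data, SNAI1 was higher by 3.31 (SE 0.34) with Cur+Pip, adjusted p = 0.125, beside 0.0129% of genes called. The difference between the lines in the effect of Cur+Pip was -1.04 (SE 0.35, adjusted p = 0.428) for FN1, beside 0.473% of genes called, so its effect was not shown to differ between the lines. For VIL1 and CDH1, listed at 0 throughout 1 line, that difference has no value of its own.

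Fibronectin isoforms differed between the HepG2 libraries along with its level. Of the FPKM on FN1 transcripts that span extra domain A, 59.3% held it in the control, 73.4% after NaB, 83.3% after Cur+Pip and 100% after the combination. Transcripts without the domain were at 576 FPKM in the control, 139 after NaB and 75.2 after Cur+Pip, and none was assembled after the combination. Those with it were at 839, 385, 374 and 315 FPKM. By this count both forms were lower in each treated library, and the form without extra domain A was lower by more. With 1 library per condition these shares have no replicate check, and they rest on how Cufflinks divided reads between isoforms: in the control the form without the domain is a transcript of 20 exons that covers the 3' part of the gene. After NaB, a further transcript of 8 exons at 302 FPKM also lies in the 3' part. It does not reach the exon and counts in neither form, so the control and the NaB library are not split alike.

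No FN1 transcript of HepG2 held extra domain B. In the Hep3B-labelled libraries, at 2.12 to 4.63 FPKM for the whole gene, 27.3% of the FPKM on transcripts that span extra domain B held it in the control and in the NaB library. In the others, 0 transcripts that span the exon held it. After the combination, a further transcript at 0.31 FPKM began inside that exon and was not counted, since it does not span it. Extra domain A was held by 60.3%, 100%, 100% and 77.4% of the FPKM over it in the order control, NaB, Cur+Pip, and combination. These rest on 299 to 736 estimated fragments for the gene per library, against 81060 to 324100 in HepG2.

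**Figure D3:**
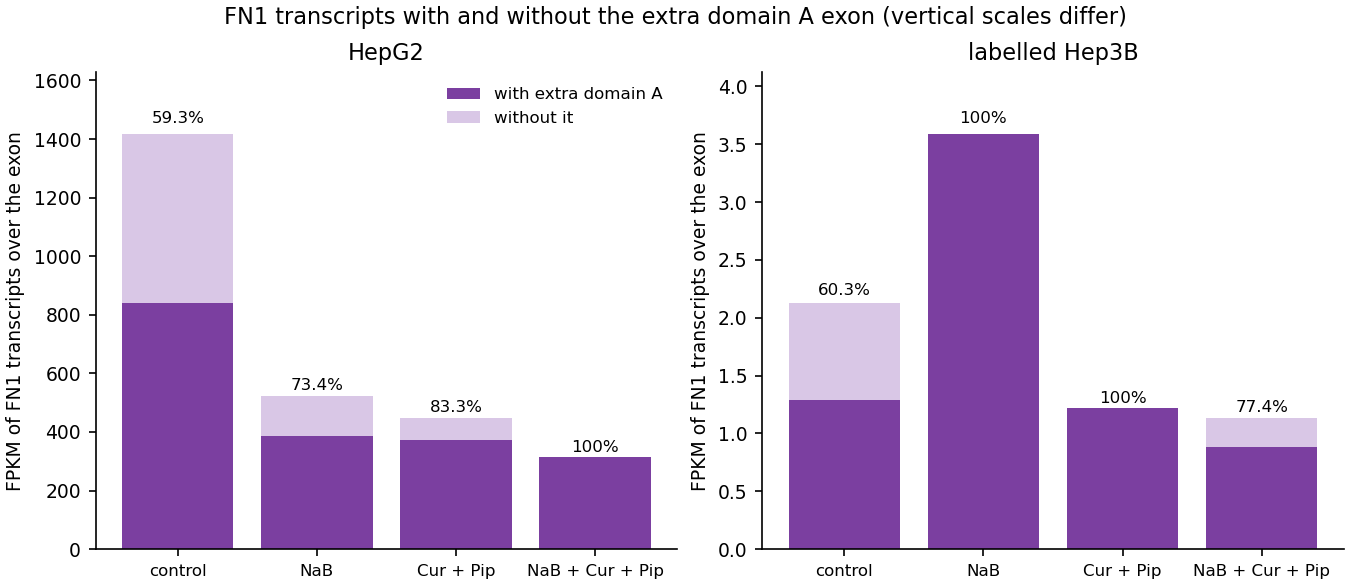
FPKM of FN1 transcripts over the extra domain A exon, with the exon in dark purple and without it in light purple, stacked for each library, and the share with the exon above each bar. In HepG2 the share goes from 59.3% in the control to 100% after the combination while the total is lower, and the Hep3B-labelled libraries have a far smaller scale.

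Other epithelial genes differed between the lines in both directions. Of 52 other epithelial genes, 35 to 41 reached 1 FPKM in each library of either line. By limma 13 of the 46 tested were higher and 12 lower in HepG2, beside 10.6% of all genes higher and 14.1% lower, with a median difference of -0.02 beside -0.11 over all genes. DSC2, a desmosomal cadherin, was higher by 3.47 (SE 0.24, adjusted p = 0.00127) and OCLN, the tight junction protein occludin, by 3.23 (SE 0.21, adjusted p = 0.00116). CD24, a surface glycoprotein, was lower, with a difference of -4.78 (SE 0.30, adjusted p = 0.00111) and EHF, an epithelial ETS factor, with -4.23 (SE 0.34, adjusted p = 0.00187). The keratin genes KRT8 and KRT18 were at 763 to 1073 and 421 to 566 FPKM in HepG2 and at 589 to 1822 and 754 to 2060 FPKM in the Hep3B-labelled libraries. The libraries without CDH1 and VIL1 thus held KRT8 and KRT18 at levels of the same order, though KRT18 was called lower in HepG2. KRT19 went the other way, at 127 to 216 FPKM in HepG2 and 13.75 to 73.3 FPKM in the Hep3B-labelled libraries. By limma it was higher in HepG2 by 2.70 (SE 0.37, adjusted p = 0.00824).

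Of 53 other mesenchymal genes, 19 to 23 reached 1 FPKM in the HepG2 libraries and 32 to 35 in the Hep3B-labelled ones. By limma 6 of the 39 tested were higher and 21 lower in HepG2, beside 10.6% of all genes higher and 14.1% lower, with a median of -1.60 beside -0.11 over all genes. Genes of both lists that reach 1 FPKM in 1 line alone entered through that line. MSN, which encodes the membrane linker moesin, was listed at 0 in HepG2 and was at 118 to 146 FPKM in the Hep3B-labelled libraries. CD44, the hyaluronan receptor, was listed at 0 in HepG2 and was at 45.2 to 79.0 FPKM there. The transcription factors TWIST1, at 1.08 to 4.26 FPKM, and ZEB2, at 0.84 to 1.92 FPKM, were likewise listed at 0 in HepG2. SPARC, a matrix glycoprotein, ran the other way, at 20.2 to 132 FPKM in HepG2 and listed at 0 in the Hep3B-labelled libraries.

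**Figure D4:**
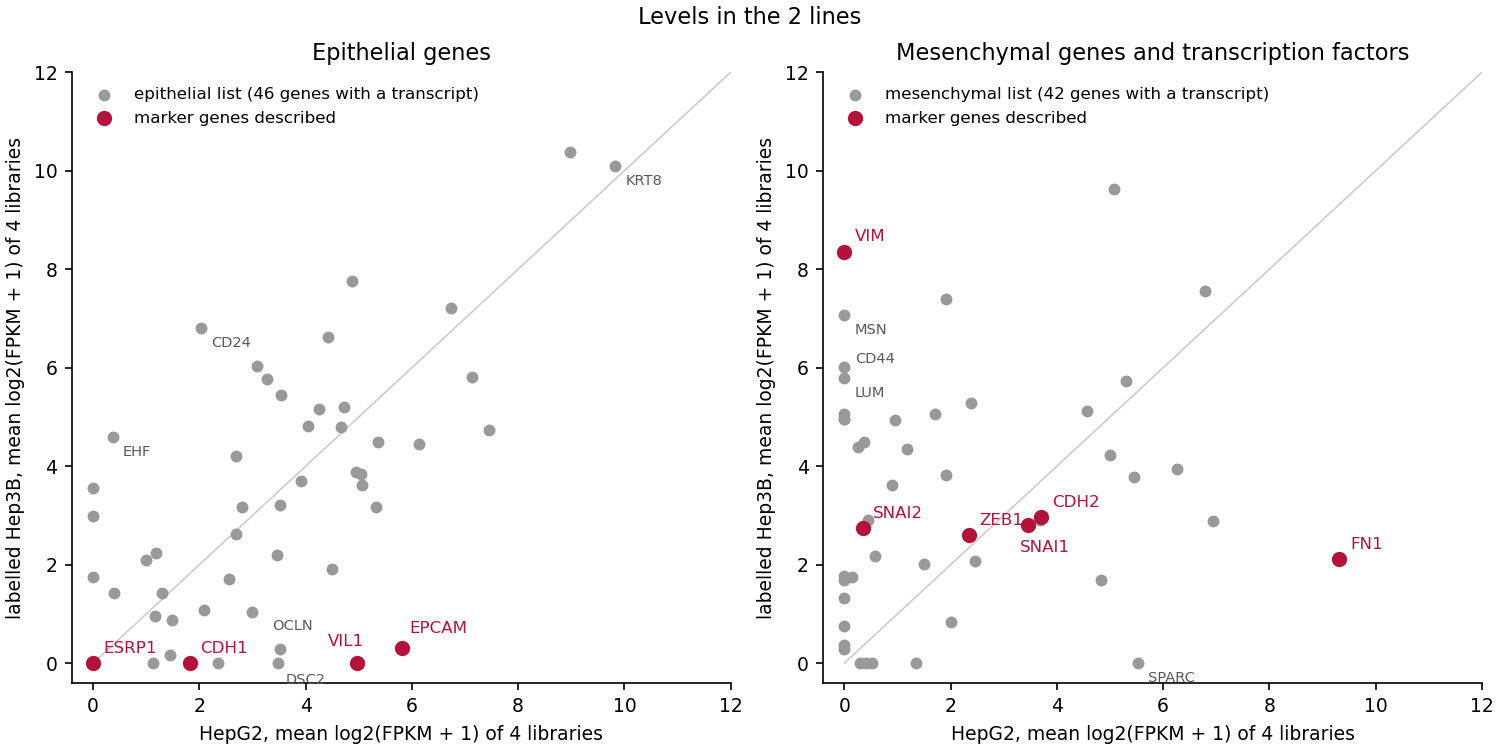
Mean log2(FPKM + 1) over the 4 libraries of HepG2 (horizontal) against that of the Hep3B-labelled libraries (vertical), with the marker genes in red, the other epithelial or mesenchymal genes in grey and a diagonal where the lines are equal. The epithelial genes lie on both sides of the diagonal while CDH1, VIL1 and EPCAM lie along the lower edge, and most mesenchymal genes lie above the diagonal while FN1 and SPARC lie below it.

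Of the 41 epithelial genes tested in HepG2, 0 were higher and 2 lower after NaB, 1 higher and 6 lower after Cur+Pip, and 1 higher and 10 lower after the combination, where the median was -0.29 beside 0 over all genes. Over all genes 4.69%, 8.96% and 8.02% were higher and 5.05%, 10.2% and 11.5% lower in the same order, so the count after NaB is near that background. MAL2, a protein of apical transport, stood at 51.1 FPKM in the HepG2 control, 41.1 after NaB, 11.9 after Cur+Pip and 6.37 after the combination. KLF5, an epithelial transcription factor, was at 2.32, 4.02, 12.6 and 22.1 FPKM, and was the 1 epithelial gene that was higher. CRB3, a polarity protein, was listed at 0 in the treated HepG2 libraries, against 21.6 FPKM in their control. TJP3, AP1M2 and EPPK1 also count as lower after the combination through a listing at 0, from 4.92, 15.1 and 2.79 FPKM in the control. AP1M2 was at 30.9 FPKM after NaB and 16.3 FPKM after Cur+Pip. Of the genes at 10 FPKM or more in the other 3 libraries of a line, 1.07% to 3.17% were listed at 0 in the remaining library, most in HepG2 after the combination, so a single listing at 0 says little.

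In the Hep3B-labelled libraries, 1 epithelial gene was higher and 5 lower after NaB, 0 and 2 after Cur+Pip, and 0 and 9 after the combination, of 41 tested, with a median of -0.53 after the combination beside -0.05 over all genes. Of all genes tested there, 4.97%, 6.44% and 6.79% were higher and 7.01%, 3.95% and 8.17% lower after NaB, Cur+Pip and the combination. F11R, a junctional adhesion molecule, was at 56.2 FPKM in that control, 4.44 after NaB, 19.3 after Cur+Pip and 5.65 after the combination. KRT19, a keratin of bile duct and progenitor cells, was at 73.3, 18.4, 23.2 and 13.75 FPKM in the same order.

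Of the 27 mesenchymal genes tested in HepG2, 0 were higher and 1 lower after NaB, 2 higher and 4 lower after Cur+Pip, and 2 higher and 3 lower after the combination, with a median of -0.66 after Cur+Pip and -0.49 after the combination. Over all genes 8.96% were higher and 10.2% lower after Cur+Pip, and 8.02% and 11.5% after the combination, so the counts of this list lie near the background. TGFBI, a matrix protein induced by TGF-beta, was at 172, 179, 30.6 and 33.98 FPKM, and TAGLN, an actin-binding protein of smooth muscle, at 29.1, 26.7, 3.998 and 5.40 FPKM. Of 36 tested in the Hep3B-labelled libraries, 0 were higher and 3 lower after NaB, 1 and 2 after Cur+Pip, and 1 and 3 after the combination, beside 4.97% and 7.01%, 6.44% and 3.95%, and 6.79% and 8.17% of all genes. LUM, a small proteoglycan of the matrix, was at 179 FPKM in that control, 61.6 after NaB, 36.75 after Cur+Pip and 20.8 after the combination. DCN, another, was at 120, 21.3, 19.7 and 15.5 FPKM in the same order.

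TGF-beta signalling is a known inducer of SNAI1. Of 18 genes of that pathway and its partners tested in HepG2, 0 passed after NaB, 2 were higher and 3 lower after Cur+Pip, and 1 higher and 4 lower after the combination, beside 8.96% of all genes higher and 10.2% lower after Cur+Pip and 8.02% and 11.5% after the combination. JAG1, a Notch ligand, was at 28.8, 31.9, 115 and 103 FPKM in HepG2, and SMAD3, a signal transducer, at 5.50, 15.0, 16.9 and 17.1 FPKM. HMGA2, a chromatin protein, was at 62.3, 77.4, 14.6 and 13.4 FPKM in HepG2. In the Hep3B-labelled libraries, 1 of 18 was higher and 0 lower after NaB and after Cur+Pip alike, and 2 were higher and 2 lower after the combination, beside 4.97%, 6.44% and 6.79% of all genes higher after NaB, Cur+Pip and the combination and 8.17% lower after the last. With so few genes called, nothing particular to this list is read from the counts. ID2, an inhibitor of helix-loop-helix factors, was at 1.14, 2.91, 14.7 and 27.0 FPKM there. TGFB1 in HepG2 and ID1 and ID3 in the Hep3B-labelled libraries were listed at 0 in the combination library alone.

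Villin acts in microvilli with other proteins, and of 13 such genes tested in HepG2, 1 was higher and 0 lower after NaB, 0 and 4 after Cur+Pip, and 0 and 2 after the combination, beside 4.69%, 8.96% and 8.02% of all genes higher and 5.05%, 10.2% and 11.5% lower. The gene higher after NaB, CDHR2, a protocadherin of microvilli, was at 7.91, 29.9, 0 and 4.41 FPKM. ESPN, which encodes the actin bundler espin, was at 37.4, 39.6, 3.01 and 2.86 FPKM. EZR, which encodes ezrin, the link from actin to the membrane, was at 56.3, 78.9, 76.6 and 116 FPKM. Of 6 such genes tested in the Hep3B-labelled libraries, 0 passed in either direction after any treatment. Over all genes there, 4.97%, 6.44% and 6.79% were higher and 7.01%, 3.95% and 8.17% lower after NaB, Cur+Pip and the combination. With so few genes, the count of 0 is not read as a contrast with HepG2. In HepG2 the hepatocyte genes moved beside CDH1, VIL1 and FN1: of 37 tested, 13 were lower and 4 higher after Cur+Pip, with a median of -1.27, and 14 lower and 3 higher after the combination, with a median of -1.37, beside 10.2% and 11.5% of all genes lower and 8.96% and 8.02% higher. The genes counted as higher, ALB, AFP and APOC3 and after Cur+Pip also APOA2, are each listed at 0 in the HepG2 control. ALB, the gene of albumin, was at 2998 and 2989 FPKM in the libraries with Cur+Pip, so its place among the higher genes rests on a transcript that was not assembled in the control. Their part, and that of the single-exon transcripts, in the lower levels of CDH1, VIL1 and FN1 was not tested.

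Markers of other cell types were read as levels. Of 12 fibroblast genes, 1 reached 1 FPKM in each HepG2 library and 4 or 5 in the Hep3B-labelled ones, where their summed level was 41.0 to 309 FPKM, against 2.29 to 6.03 FPKM in HepG2. COL1A2, PDGFRA, THY1, FAP, PRRX1 and POSTN, which also mark fibroblasts, were listed at 0 in all 8 libraries. Of 10 endothelial genes 1 or 2 reached 1 FPKM in any library, with summed levels of 2.71 to 21.5 FPKM. Of 10 leukocyte genes 1 to 3 did, with PTPRC, the pan-leukocyte marker, listed at 0 throughout and a sum of 1.17 to 46.0 FPKM in the Hep3B-labelled libraries and 155 to 1399 FPKM in HepG2, nearly all of it LYZ, the gene of lysozyme. Of 20 intestinal epithelial genes 2 to 5 did, with CDX2 listed at 0 throughout and a sum of 16.7 to 488 FPKM. The part of these cell types in the level of VIM, SNAI2 or VIL1 was not tested.

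The genes whose pattern was most like that of a marker were sought by Pearson's r of log2(FPKM + 1) over the 8 libraries among 10575 protein-coding genes. The libraries share lines, treatments and controls, so r is a description. For CDH1 they were CD302 (r = 0.999), KCNJ10 (r = 0.997) and FADS2 (r = 0.997), all listed at 0 in the Hep3B-labelled libraries. FADS2, a fatty acid desaturase, was at 34.1, 7.77, 3.59 and 4.57 FPKM in HepG2. For VIM they were WLS, LIMCH1 and BTBD6 (r = 0.9997 to 0.9998), all listed at 0 in HepG2.

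For SNAI1, named after its values were seen, they were DNAJB9 (r = 0.975), HSPA6 (r = 0.973) and BRF2 (r = 0.972). DNAJB9, a chaperone of the endoplasmic reticulum, was at 16.5, 8.52, 35.7 and 35.2 FPKM in HepG2 and at 9.34, 9.15, 20.9 and 38.9 FPKM in the Hep3B-labelled libraries. HSPA6, a heat shock protein, was listed at 0 in both controls. It reached 272 FPKM with Cur+Pip and 224 FPKM with the combination in HepG2, and 13.8 and 56.2 FPKM in the other line, against 0 and 0.55 FPKM with NaB alone. BRF2, a factor of RNA polymerase III, followed the same split between libraries with and without Cur+Pip.

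**Figure D5:**
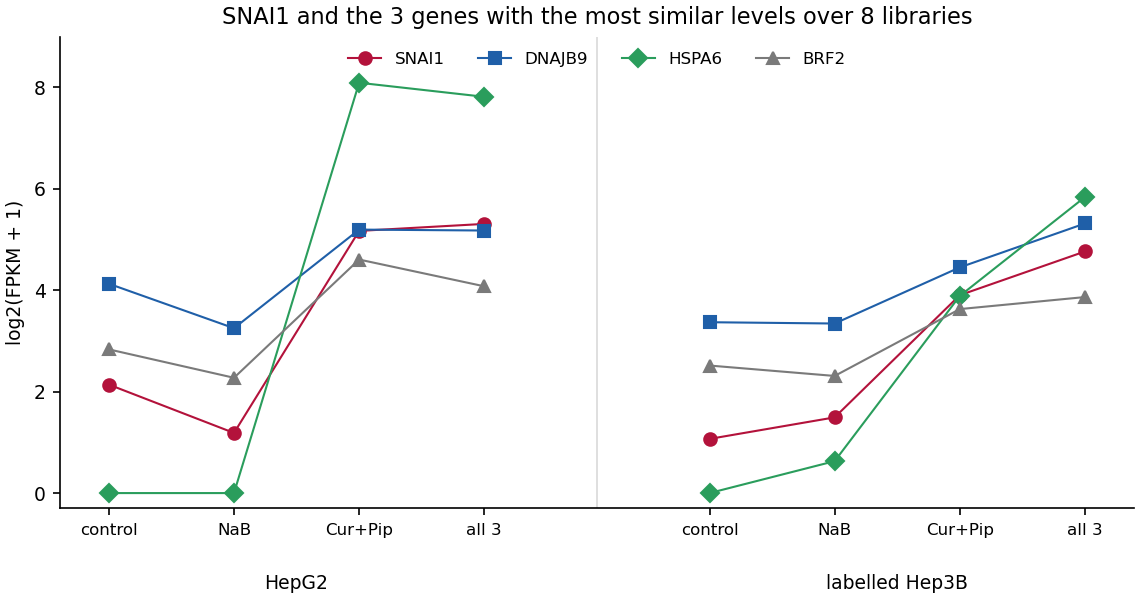
Level of SNAI1 and of the 3 genes with the highest Pearson's r to it, as log2(FPKM + 1), in the 8 libraries, with lines that join the libraries of a cell line only to guide the eye. Each of the 4 genes is higher in the libraries with Cur+Pip than in those without, in both lines.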

How the data were processed

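RNA of 8 libraries was sequenced in pairs of 150 bases from a strand-specific library kit. The RNA was isolated in triplicate, and no source used here says whether a library pools the isolates. STAR alignments to GRCh38 were assembled by the authors with Cufflinks, library by library, whose deposited output lists an FPKM, a 95% interval and a coverage for each transcript, under identifiers that name no gene. FastQC and Cuffdiff stand in the processing notes of the submitters too. Tool versions: not given in the sources used here. No counts were read and the depth is an estimate from coverage and length.

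Each transcript went (bedtools 2.31.1) to the same-strand gene of GENCODE release 44 with most, and at least 50%, of its exonic bases, and FPKM was summed per gene, as were the interval bounds, which gives the widest interval. A transcript that runs over neighbours gives its level to 1 gene. The threshold was an absolute log2((FPKM + 1)/(FPKM + 1)) over 1.5 among genes with 1 FPKM or more. limma 3.58.1 in R 4.3.3 was fitted to log2(FPKM + 1) of 15445 genes with the line and the treatment as terms and adjusted by Benjamini-Hochberg. On simulated data for this fit it recovered 0%, 62.5% and 81.3% of 200 genes changed by 1.5, 3 and 6 (log2) among 15445, with 0.333, 3.33 and 8.33 false calls on average. Other steps ran in Python 3.11.15 (scipy 1.17.1, pandas 2.3.3, numpy 2.4.6, matplotlib 3.10.9).

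The 10 members, the 9 other gene lists and the tests were chosen with earlier results of these data known. Named genes are the members, up to 3 highest and 3 lowest genes of each list after the combination and up to 4 that differ most between the lines in each direction, at 5 FPKM or more, and the 3 genes most like CDH1 and VIM. Other genes, named for their role or after their values were seen, are KRT18, KRT8, ESRP2, EPPK1, TWIST1, ZEB2, CDHR2, ALB, AFP, APOC3, APOA2 and those like SNAI1. A gene of the mesenchymal list, which stays in the counts, and a sequence are not reported here. RefSeq promoter windows (GRCh38.p14) were matched for FN1, VIM, ZEB1 and CDH2, and those of the other 6 members were not used here. The alternatives were other pseudocounts, filters, scalings, thresholds and transcript sums, a trended variance, the line alone, and each library left out; terms for Cur+Pip and for NaB, their interaction with the line, and folds at matched NaB were added after seeing the data.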

Additional observations from a re-analysis of the deposited data

How the results depend on the processing

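In HepG2, 8 folds of marker genes passed a threshold of 1.5. A threshold of 1 gave 13, the added folds being those of CDH1, EPCAM and VIL1 after NaB and of EPCAM after Cur+Pip and after the combination, and a threshold of 2 gave 5. Other settings gave 6 to 8, with 6 for a pseudocount of 5, where CDH1 was at -0.96 and -0.95, and 6 for the largest transcript, where FN1 was at -0.62 and -0.87. For the folds, shares over all genes were taken in the main setting only, so these counts are not read as particular to the markers. The 2 folds of SNAI1 in the Hep3B-labelled libraries were past the threshold under all 11 settings tried. Of the markers that differ between the lines, 6 were called, and 5 or 6 under the alternatives of pseudocount, scaling, variance and transcript sum. The exception was the filter that asks for 1 FPKM in all 8 libraries, which leaves 4 markers to test and called 1, FN1. The share of all genes called under it was not taken. Leaving out each library in turn gave 4 to 5, with CDH1 lost each time. Under all 8 of these, and in the fits with terms for Cur+Pip and NaB or their interaction with the line, which were chosen after seeing the data, the count of markers changed by a treatment in both lines was 0. No value past its threshold changed sign. With the largest transcript alone, 5 folds short of the threshold did, among them SNAI1 after NaB in the Hep3B-labelled libraries, from 0.42 to -0.27, and SNAI2 there, from 0.76 to -0.06, and ZEB1 after the combination in HepG2, from 0.46 to -0.03. No paired analysis was possible because each condition is 1 library and the replicate number 1 that all groups share pairs nothing. Treatments are limited by having 1 library per condition, and low levels also by depth: under 400 estimated fragments stand behind CDH1 after treatment, SNAI2 in HepG2 and SNAI1 in the libraries without Cur+Pip.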
